A study of Mus musculus with 12 samples.

Results

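The genes of the CCN proteins and of the YAP/TAZ-TEAD module were followed in conditionally immortalized proximal tubule (PT) cells of the mouse with and without the type II TGF-β receptor (TβRII). The 10 members were listed by symbol (Ccn1, Ccn2, Ccn3, Ccn4, Ccn5, Ankrd1, Amotl2, Yap1, Wwtr1 and Tead1) among the 25514 genes counted. No rule on measured values chose them, but they were listed with earlier results of these data known. Of the 10, 9 passed the filter on low counts. RNA was sequenced from 12 libraries, 3 for each of 4 groups. TβRII flox/flox PT cells (labelled H2ts6;Tgfbr2fl/fl) and TβRII-/- PT cells (labelled H2ts6;Tgfbr2-/-) were each sequenced from normal culture medium and after H2O2 for 24 h in serum-free medium. The comparisons ask how these genes differ with TβRII, and with H2O2, which the study used as an oxidative stress. Every group carried a heat-sensitive T antigen from the Immorto-mouse that makes cells divide at 33 °C and is switched off at 37 °C. All cells came from male mice with floxed Tgfbr2, were grown in 2.5% fetal bovine serum and were moved to 37 °C for 5 days before the experiment. Cre delivered by adenovirus in culture made TβRII-/- PT cells from TβRII flox/flox PT cells. The genotypes are thus 2 cell lines, and loss of TβRII cannot be told apart from any other difference between the lines. The methods of the study put 24 h without serum before the H2O2. Untreated cells kept their serum, so H2O2 and serum withdrawal cannot be told apart either. Below, an effect of H2O2 means the difference between H2O2 in serum-free medium and untreated cells. The labels and the methods give the H2O2 dose in different units, and no dose is used here. The methods describe in vitro replicates in general as independent experiments or biological replicates, and the labels do not say which the 3 libraries of a group were. The p values measure the spread between these libraries.

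YAP (gene Yap1) and TAZ (gene Wwtr1) are transcription coactivators that bind DNA through the TEAD factors, of which Tead1 is one. The Hippo kinases phosphorylate YAP and TAZ and hold them in the cytoplasm, and a spread shape, stiff matrix and serum let them into the nucleus, so that their activity is set largely at the protein level. Ccn1 (CYR61), Ccn2 (CTGF), Ankrd1 and Amotl2 are widely used target genes. The CCN proteins are secreted matrix-associated proteins that bind integrins and growth factors. Ccn2 is also a classic target of TGF-β and a marker of fibrosis in the injured kidney.

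Each gene is represented by its transcript with the highest total, and these deposited counts summed to between 15870155 and 20857618 in a library. Values below are normalized counts for a library of 17351835 counts. Tgfbr2, the deleted gene, had raw counts of 8791, 7521 and 7032 in the 3 untreated TβRII flox/flox libraries and 6485, 6895 and 6642 in untreated TβRII-/- cells. With H2O2 it had 13085, 13474 and 11960 counts in TβRII flox/flox cells and 7823, 9299 and 7156 in TβRII-/- cells. The count of a whole transcript does not resolve the deleted exon, so it does not check the genotype labels. The methods of the study state that immunoblotting and RNAseq were used to verify the deletion. Tgfbr2 was lower in TβRII-/- cells, by a log2 fold change of -0.35 ± 0.07 (SE, edgeR adjusted p = 2.81e-05) untreated and -0.92 ± 0.07 (edgeR adjusted p = 6.62e-14) with H2O2. Of 10 PT markers, 6 passed the filter, and all 6 were lower in TβRII-/- cells, untreated and with H2O2. Slc34a1, Hnf4a and Slc22a6 had at most 2 counts in any library, so these markers of the labelled cell type were absent or nearly so. Lrp2 and Aqp1 were abundant, with means of 17280 and 7103 normalized counts in untreated TβRII flox/flox cells. In untreated TβRII-/- cells their means were 11016 and 4421. The summed PT markers lay between 22028 and 28010 normalized counts in untreated TβRII flox/flox cells. They lay between 15057 and 16088 in untreated TβRII-/- cells, and Lrp2 and Aqp1 made up nearly all of both sums. The 6 pan-epithelial markers were all higher in TβRII-/- cells, with sums of 17564 to 19092 and 37232 to 40332 in the untreated groups, and Cdh1 and Epcam had at most 3 counts in untreated TβRII flox/flox cells. Fibroblast markers summed to at most 96.3 in any library and those of the distal nephron to at most 14.9, and 5 of 8 and 6 of 6 of them did not pass the filter. Endothelial markers summed to between 465 and 586 in untreated TβRII-/- cells and to at most 138 elsewhere, with Pecam1 and Cdh5 at 0 in those cells. Kdr alone had a mean of 507 in untreated TβRII-/- cells, so this sum was nearly all 1 gene. Leukocyte markers summed to between 896 and 1164, nearly all from Csf1r and Cd68, with Adgre1 and Tyrobp at 0. The part of these marker differences in the results below was not tested.

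The promoter windows of 3 target genes are shown because they hold the core of the TEAD motif, and the results below set these common YAP targets side by side. The RefSeq table on GRCm38.p6 held windows of 250 bases before to 50 after a transcript start for 5 of the 10 members. Only the 250 bases before the start are printed, on the strand of the gene from 5′ to 3′, with the core GGAATG, or CATTCC where it lies on the other strand, in capitals.
Ccn1, minus strand, chr3:145649986-145650235: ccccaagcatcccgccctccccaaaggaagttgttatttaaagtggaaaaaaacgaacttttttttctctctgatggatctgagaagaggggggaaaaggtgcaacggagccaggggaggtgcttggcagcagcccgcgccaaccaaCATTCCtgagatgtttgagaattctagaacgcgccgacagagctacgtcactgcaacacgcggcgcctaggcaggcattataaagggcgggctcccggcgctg
Ankrd1, minus strand, chr19:36119845-36120094: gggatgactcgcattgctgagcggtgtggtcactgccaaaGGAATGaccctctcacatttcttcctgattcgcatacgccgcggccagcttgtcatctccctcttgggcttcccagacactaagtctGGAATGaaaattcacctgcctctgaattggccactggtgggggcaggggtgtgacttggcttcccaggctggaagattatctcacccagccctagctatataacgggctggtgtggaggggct
Amotl2, plus strand, chr9:102717554-102717803: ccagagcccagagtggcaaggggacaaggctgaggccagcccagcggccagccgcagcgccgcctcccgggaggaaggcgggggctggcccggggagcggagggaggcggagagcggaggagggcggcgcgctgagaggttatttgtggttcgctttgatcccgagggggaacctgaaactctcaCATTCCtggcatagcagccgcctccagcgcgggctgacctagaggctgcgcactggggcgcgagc
In the window of Ccn1 the motif began 103 bases before the start, in that of Amotl2 65 bases before it, and in that of Ankrd1 it occurred at 210 and at 123 bases before it. The windows of Yap1 and Wwtr1 held it as well, so all 5 members with a window did. On either strand, 16.6% of the 27025 genes with a window held the motif in any window. Of the 32851 single windows in the table, 14.7% held it and 1.36% held 2 or more. This motif is short and was chosen with the members known, and its presence is a description of the letters only. The window of Amotl2 belongs to a start inside the gene as RefSeq gives it. No window was given for Ccn2, Ccn3, Ccn4, Ccn5 and Tead1.

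The 4 CCN genes with counts were far lower in TβRII-/- cells, whereas Yap1, Wwtr1 and Ankrd1 did not pass the test between genotypes. Between untreated genotypes 6 of the 9 members tested passed an adjusted p of 0.05 in the quasi-likelihood test of edgeR, adjusted by Benjamini-Hochberg over 12971 genes, and all 6 were lower in TβRII-/- cells. Of all genes tested, 64.7% passed in either direction and 31.4% as lower. The members' share of calls in either direction was thus close to that of all genes. Their median on the log2 scale was -0.53, and that of all genes 0.01. At a second limit, an unadjusted p under 0.01 with a fold change of at least 1.5, 4 members remained lower, against 11.3% of all genes. With H2O2 the same 6 members (Ccn1, Ccn2, Ccn4, Ccn5, Amotl2 and Tead1) were lower in TβRII-/- cells, against 31.3% of genes called lower and 66.4% called at all, and 4 passed the second limit, against 12.9% lower. The untreated groups did not overlap for 7 members, against 65.3% of all genes, and the H2O2-treated groups for 6, against 71.0%.

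Ccn1, an immediate-early gene whose secreted protein binds integrins, had 37148, 34612 and 30102 normalized counts in the 3 libraries of untreated TβRII flox/flox cells and 16027, 16534 and 14691 in untreated TβRII-/- cells. With H2O2 it had 26192, 28451 and 28195 in TβRII flox/flox cells and 9199, 8384 and 9818 in TβRII-/- cells. The 4 groups fell in 4 separate bands, ordered as untreated TβRII flox/flox, H2O2-treated TβRII flox/flox, untreated TβRII-/- and H2O2-treated TβRII-/- cells. In untreated TβRII-/- cells Ccn1 was 2.16-fold lower, a log2 fold change of -1.11 ± 0.08 (SE, adjusted p = 3.19e-14). With H2O2 the gap was 3.02-fold, a log2 fold change of -1.60 ± 0.08 (SE, adjusted p = 3.22e-18). H2O2 in serum-free medium lowered it by a log2 fold change of -0.30 ± 0.08 (SE, adjusted p = 0.00197) in TβRII flox/flox cells and by a log2 fold change of -0.79 ± 0.08 (SE, adjusted p = 1.05e-09) in TβRII-/- cells. These H2O2 effects differed, with an interaction of -0.49 ± 0.11 on the log2 scale (SE, edgeR adjusted p = 0.00301), so that the fall was larger without TβRII.

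Ccn2, the CTGF gene at chr10:24595442-24598683 of GRCm38.p6, was lower in TβRII-/- cells and lower after H2O2 in serum-free medium. It had 32883, 32157 and 27615 normalized counts in untreated TβRII flox/flox cells and 6515, 6354 and 5873 in untreated TβRII-/- cells. After H2O2 the libraries held 10710.5, 11500.0 and 11189.9 in TβRII flox/flox cells and 2367, 2385 and 2595 in TβRII-/- cells. No 2 groups overlapped, and the H2O2-treated TβRII flox/flox cells lay between the untreated genotypes. The deletion line was 4.94-fold lower untreated, a log2 fold change of -2.31 ± 0.07 (SE, adjusted p = 1.86e-23), and 4.55-fold lower with H2O2, a log2 fold change of -2.19 ± 0.07 (SE, adjusted p = 1.21e-22). H2O2 lowered Ccn2 2.77-fold in TβRII flox/flox cells, a log2 fold change of -1.47 ± 0.07 (SE, adjusted p = 3.38e-17), and 2.55-fold in TβRII-/- cells, a log2 fold change of -1.35 ± 0.07 (SE, adjusted p = 7.91e-16). The difference of these H2O2 effects did not pass the test (adjusted p = 0.502), and its 95% interval ran from -0.08 to 0.32. From untreated TβRII flox/flox cells to H2O2-treated TβRII-/- cells the mean of Ccn2 went down 12.6-fold and that of Ccn1 3.72-fold. In these bulk libraries fewer expressing cells and less RNA per cell cannot be told apart.

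**Figure D1:**
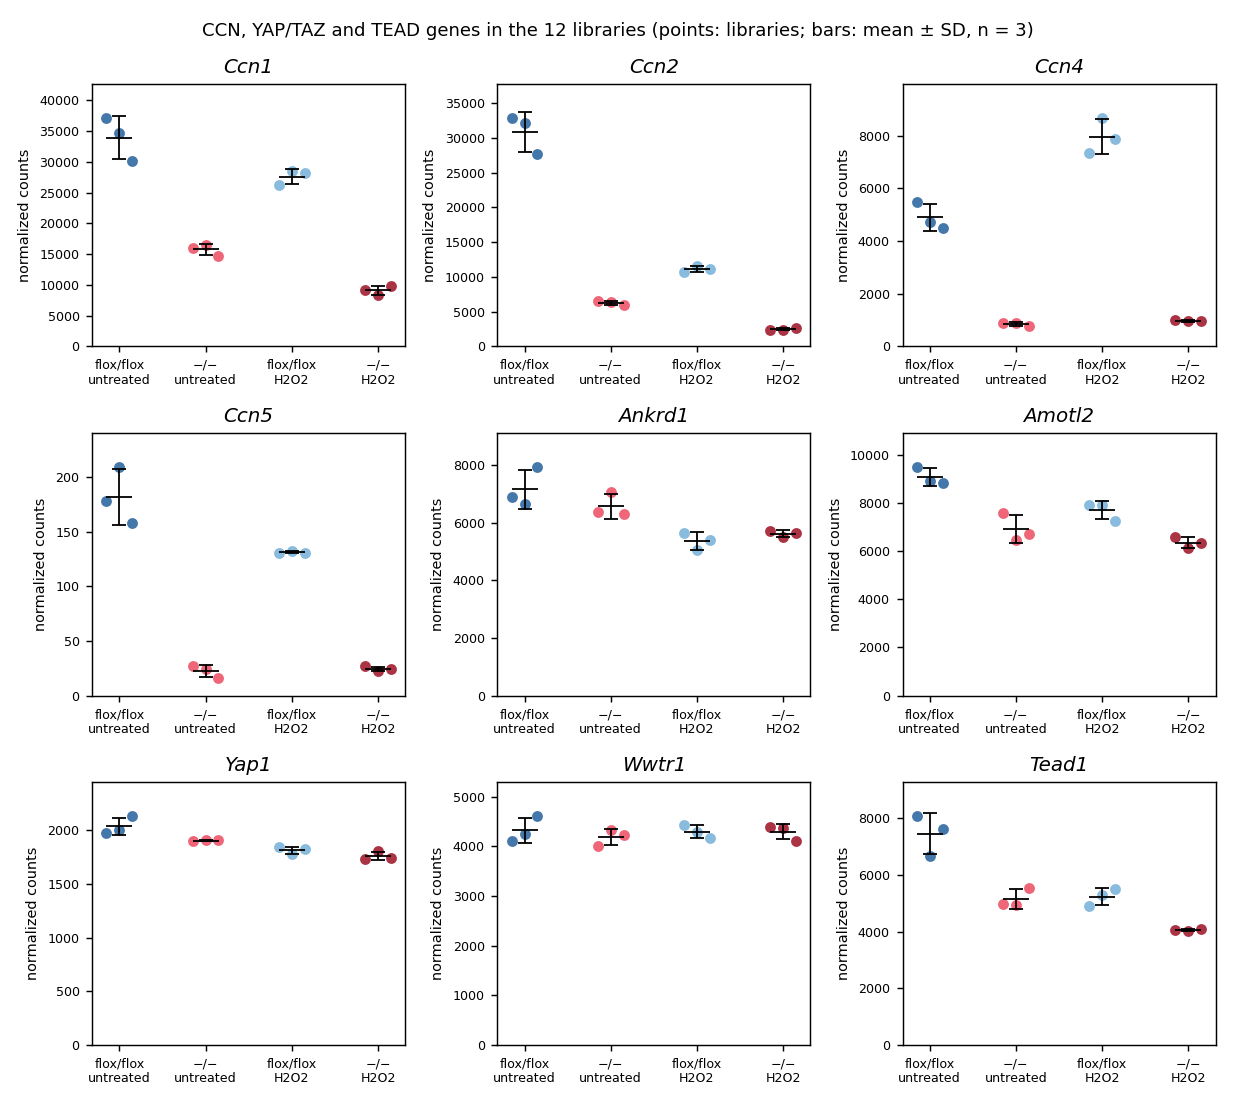
Normalized counts (vertical axes, from 0, for a library of 17351835 counts) of the 9 members with counts in each of the 12 libraries, by group on the horizontal axes. Points are libraries and bars are the mean ± SD of 3. The 4 CCN genes separate the genotypes widely, Wwtr1 lies level over all groups, and Ccn4 is highest in H2O2-treated TβRII flox/flox cells.

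Ccn4 (WISP1), first described as a target of Wnt signalling, went the other way from Ccn2 with H2O2. Its libraries held 5466, 4730.4 and 4491 normalized counts in untreated TβRII flox/flox cells and 7334, 8682 and 7888 after H2O2. In TβRII-/- cells they held 896, 895 and 766 untreated and 988, 943 and 944 after H2O2. The highest TβRII-/- library, at 988, was far below the lowest TβRII flox/flox library, at 4491, and H2O2 moved the TβRII flox/flox group clear of its untreated range. The genotypes differed 5.75-fold untreated, a log2 fold change of -2.52 ± 0.08 (SE, adjusted p = 1.44e-23), and 8.32-fold with H2O2, a log2 fold change of -3.06 ± 0.08 (SE, adjusted p = 7.34e-26). H2O2 raised Ccn4 1.63-fold in TβRII flox/flox cells, a log2 fold change of 0.70 ± 0.07 (SE, adjusted p = 1.67e-09). Without TβRII the log2 fold change of 0.17 ± 0.08 (SE, adjusted p = 0.0923) did not pass the test. The difference itself passed, with an interaction of -0.53 ± 0.11 (SE, edgeR adjusted p = 0.00116).

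Ccn5 (WISP2), a family member that lacks the C-terminal domain of the others, was scarce but moved with genotype in the same direction. It had 178, 209 and 158 normalized counts in untreated TβRII flox/flox cells and 27.2, 24.2 and 16.3 in untreated TβRII-/- cells, and then 131, 132 and 131 and 26.8, 22.8 and 23.9 with H2O2. The TβRII-/- libraries all lay under the lowest TβRII flox/flox library. Ccn5 was 8.05-fold lower untreated, a log2 fold change of -3.01 ± 0.18 (SE, adjusted p = 1.45e-15), and 5.35-fold lower with H2O2, a log2 fold change of -2.42 ± 0.19 (SE, adjusted p = 3.62e-13). H2O2 lowered it in TβRII flox/flox cells by a log2 fold change of -0.47 ± 0.14 (SE, adjusted p = 0.00721), a call that was lost without replicate 2 of untreated TβRII flox/flox cells (adjusted p = 0.0733). Without TβRII, at 17 to 29 raw counts, the log2 fold change of 0.12 ± 0.25 (SE, adjusted p = 0.737) did not pass, and the interaction did not either (0.59 ± 0.29 SE, adjusted p = 0.212). Ccn3 (NOV) had 0 counts in all 12 libraries, which allows up to 3 counts in each, so no comparison was made.

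Per length of transcript, Ccn1 was the most abundant CCN gene in every group and its share of the family grew as Ccn2 declined. Normalized counts per kb summed over the family to 29088 ± 2879 (SD, n = 3) in untreated TβRII flox/flox, 19303 ± 870.0 in H2O2-treated TβRII flox/flox, 10220.2 ± 596 in untreated TβRII-/- and 5594 ± 392 in H2O2-treated TβRII-/- cells. Ccn1 made up 57.4% ± 0.53 (SD, n = 3) of this sum in untreated TβRII flox/flox cells and 75.8% ± 0.51 in untreated TβRII-/- cells. After H2O2 its share was 70.4% ± 0.39 and 80.3% ± 0.81. Ccn2 held 38.9% ± 0.62, 22.4% ± 0.50, 21.1% ± 0.25 and 16.1% ± 0.68 in the same order of groups. The share of Ccn4 was highest, at 8.07% ± 0.37, in H2O2-treated TβRII flox/flox cells and lowest, at 1.63% ± 0.05, in untreated TβRII-/- cells. Ccn5 held at most 0.402% in any library. Lengths are those of GENCODE M39, whereas reads were counted on M23, so the per-length order of genes as close as Ccn1 and Ccn2 in untreated TβRII flox/flox cells (a ratio of 1.48) depends on them.

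**Figure D2:**
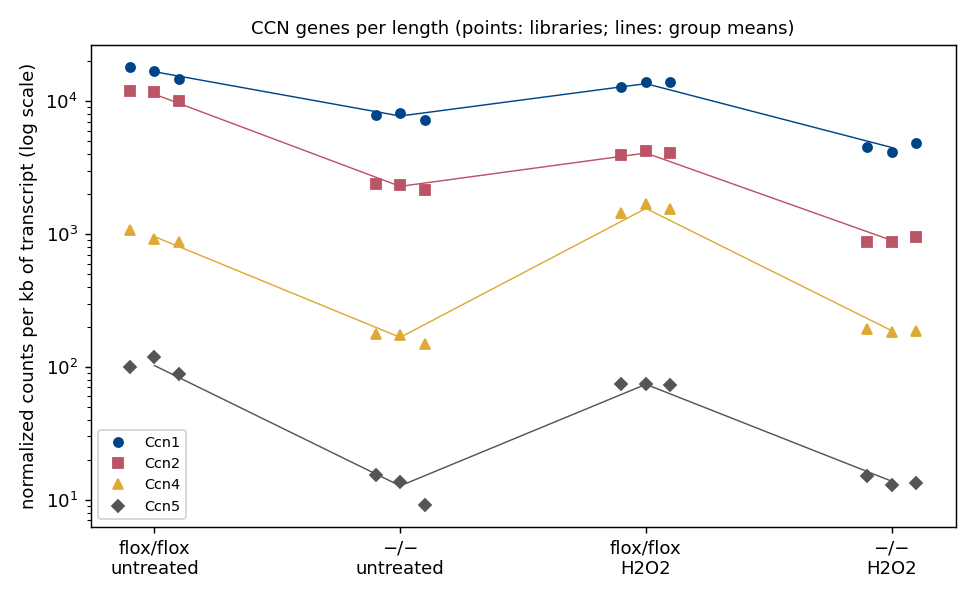
Normalized counts per kb of transcript (vertical axis, log scale) of the 4 CCN genes with counts, by group on the horizontal axis. Points are libraries and lines join group means of 3 in the order of the axis. No segment joins the untreated and the treated group of a genotype. Ccn1 is highest throughout. Ccn2 falls by a larger factor than Ccn1 from untreated to H2O2-treated TβRII flox/flox cells, and Ccn4 is highest in the latter.

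Ankrd1, an ankyrin-repeat protein of muscle and stressed epithelia and a widely used readout of YAP, differed little between genotypes. It had 6899, 6671 and 7936 normalized counts in untreated TβRII flox/flox cells and 6363, 7075 and 6298 in untreated TβRII-/- cells. With H2O2 the libraries held 5653, 5053 and 5399 in TβRII flox/flox and 5720.3, 5510.0 and 5651 in TβRII-/- cells. The genotypes overlapped in both media, and both H2O2-treated groups lay below both untreated ones. Between untreated genotypes the log2 fold change of -0.12 ± 0.07 (SE, adjusted p = 0.104) did not pass, and its 95% interval of -0.26 to 0.01 does not overlap that of Ccn2 (-2.45 to -2.16). With H2O2 the value was 0.07, with an interval of -0.07 to 0.20 (adjusted p = 0.382). H2O2 lowered Ankrd1 by a log2 fold change of -0.42 ± 0.07 (SE, adjusted p = 8.70e-06) in TβRII flox/flox cells and by a log2 fold change of -0.23 ± 0.07 (SE, adjusted p = 0.00771) in TβRII-/- cells, and without replicate 2 of untreated TβRII-/- cells the latter did not pass (adjusted p = 0.0774). The transcript that stood for Ankrd1 is annotated as a target of nonsense-mediated decay, and its 6 annotated transcripts gave values between -0.15 and -0.11 between untreated genotypes. A read is counted on each transcript it overlaps, so these transcripts share reads and their likeness is no separate check.

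Amotl2 encodes a junction protein that binds YAP and is itself a YAP target. It had 9498, 8927 and 8841 normalized counts in untreated TβRII flox/flox cells and 7583, 6471 and 6698 in untreated TβRII-/- cells, then 7938, 7940.4 and 7261 and 6607, 6125 and 6339 after H2O2. The groups were ordered by genotype within each medium without overlap, but each step was small. Amotl2 was 1.31-fold lower in untreated TβRII-/- cells, a log2 fold change of -0.39 ± 0.07 (SE, adjusted p = 3.59e-06), and 1.21-fold lower with H2O2, a log2 fold change of -0.28 ± 0.07 (SE, adjusted p = 0.000367). H2O2 lowered it in TβRII flox/flox cells by a log2 fold change of -0.24 ± 0.06 (SE, adjusted p = 0.00392), and without replicate 3 of that treated group the adjusted p was 0.0526. The corresponding log2 fold change of -0.12 ± 0.07 (SE, adjusted p = 0.139) in TβRII-/- cells did not pass. The transcript that stood for Amotl2 is likewise annotated as a decay target.

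The coactivators themselves were near level. Yap1 had 1977, 2002 and 2129 normalized counts in untreated TβRII flox/flox cells and 1898, 1908 and 1908 in untreated TβRII-/- cells, with 1842, 1775 and 1822 and 1734, 1805 and 1739 after H2O2. The highest and the lowest group mean differed 1.16-fold. Between genotypes the untreated log2 fold change of -0.10 ± 0.06 (SE, adjusted p = 0.129) and the H2O2-treated value of -0.04 (adjusted p = 0.513) did not pass, and the 95% intervals of -0.21 to 0.02 and -0.16 to 0.07 bound what could have been missed. H2O2 lowered Yap1 in TβRII flox/flox cells by a log2 fold change of -0.17 ± 0.06 (SE, adjusted p = 0.0163), and this call was lost without either of replicates 2 and 3 of H2O2-treated TβRII flox/flox or replicate 3 of untreated TβRII flox/flox cells (adjusted p between 0.0513 and 0.0848). The log2 fold change of -0.11 ± 0.06 (SE, adjusted p = 0.103) in TβRII-/- cells did not pass.

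Wwtr1, the TAZ gene, was the flattest of the 9 members tested, by the ratio of its highest to its lowest group mean. Its libraries held 4106, 4254 and 4602 normalized counts in untreated TβRII flox/flox, 4000.0, 4329 and 4234 in untreated TβRII-/-, 4426, 4291 and 4174 in H2O2-treated TβRII flox/flox and 4392, 4371 and 4116 in H2O2-treated TβRII-/- cells. All 4 groups overlapped and their means lay within 1.03-fold. None of its 5 comparisons passed, with adjusted p values from 0.521 to 0.986, and the interval between untreated genotypes was -0.17 to 0.08. Per kb, Wwtr1 exceeded Yap1 by a ratio of 1.91 ± 0.04 (SD, n = 3) in untreated TβRII flox/flox and 2.20 ± 0.08 in H2O2-treated TβRII-/- cells.

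Tead1, the DNA-binding partner, fell with each change of condition. It had 8064, 6670.0 and 7628 normalized counts in untreated TβRII flox/flox cells and 4976, 4918 and 5546 in untreated TβRII-/- cells. H2O2-treated libraries held 4910.4, 5272 and 5493 in TβRII flox/flox and 4066, 4008 and 4083 in TβRII-/- cells. Untreated TβRII flox/flox cells were highest and H2O2-treated TβRII-/- cells lowest, and the other two groups overlapped each other between them. The genotypes differed by a log2 fold change of -0.53 ± 0.07 (SE, adjusted p = 2.80e-08) untreated and by a log2 fold change of -0.37 ± 0.07 (SE, adjusted p = 1.80e-05) with H2O2. H2O2 lowered Tead1 by a log2 fold change of -0.51 ± 0.07 (SE, adjusted p = 3.00e-07) in TβRII flox/flox cells and by a log2 fold change of -0.35 ± 0.07 (SE, adjusted p = 0.000136) in TβRII-/- cells, and the difference of these effects did not pass (adjusted p = 0.291). Its paralogs, named for their kinship and not for their values, did not move as a block. The transcript that stood for Tead3 is annotated as one with a retained intron. Between untreated genotypes Tead2 was lower by a log2 fold change of -1.20 ± 0.06 (SE, adjusted p = 3.03e-17) and Tead3 by a log2 fold change of -0.77 ± 0.07 (SE, adjusted p = 9.03e-11), while Tead4 was higher by a log2 fold change of 0.20 ± 0.07 (SE, adjusted p = 0.0127). H2O2 lowered Tead4 in TβRII flox/flox cells by a log2 fold change of -0.58 ± 0.07 (SE, adjusted p = 1.77e-07), where Tead2 and Tead3 had log2 fold changes of 0.00 and -0.00 that did not pass.

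With H2O2 in TβRII flox/flox cells 8 of the 9 members tested passed, 1 higher (Ccn4) and 7 lower, against 41.6% of all genes, 21.0% higher and 20.5% lower. Ccn2 and Ccn4 also passed the limit of fold 1.5, against 7.56% of genes. In TβRII-/- cells 4 members passed, Ccn1, Ccn2, Ankrd1 and Tead1, all lower, against 39.6% called and 19.1% lower, and Ccn1 and Ccn2 passed the limit of fold 1.5, against 7.77%. When only the 6 libraries of TβRII-/- cells were fitted, 7 members passed, against 45.6% of all genes tested in that fit. Libraries of treated and untreated TβRII flox/flox cells did not overlap for 8 members, against 47.4% of genes, and those of TβRII-/- cells for 6, against 52.1%. The H2O2 effects of the genotypes differed for 2 of 9 members, Ccn1 and Ccn4, against 10.2% of genes. The genotype and the H2O2 comparisons share libraries, so their values stand side by side and are not independent.

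**Figure D3:**
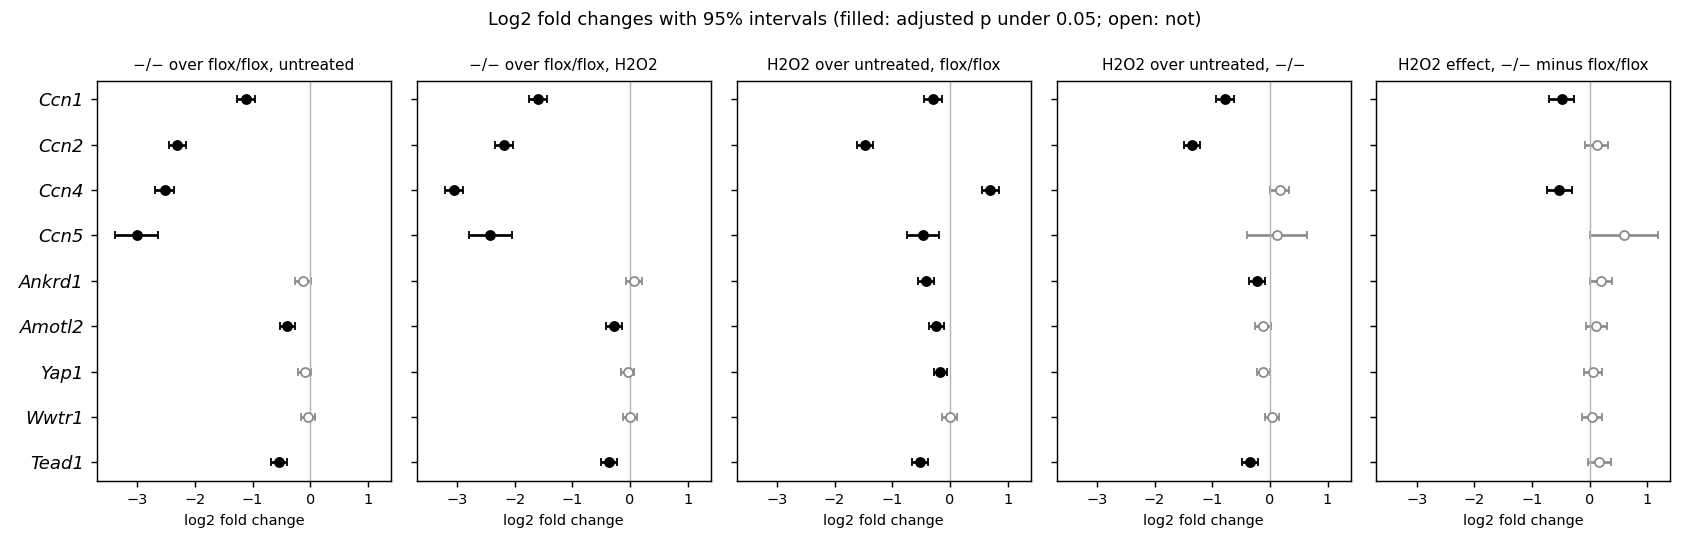
Log2 fold changes (horizontal axes) with 95% intervals of the 9 members tested, 1 panel per comparison, from edgeR. Filled points passed an adjusted p of 0.05 and open points did not. Ccn1, Ccn2, Ccn4 and Ccn5 lie at or beyond -1.11 in both genotype panels, and Ccn4 is the member to the right of 0 with H2O2 in TβRII flox/flox cells.

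Other genes of the pathway, listed by symbol with earlier results of these data known, were tested beside the members. Of 32 other Hippo and TEAD partner genes, 28 were tested between untreated genotypes, and 7 were higher and 15 lower in TβRII-/- cells, at a median of -0.18 on the log2 scale, where 64.7% of all genes were called, 33.3% higher and 31.4% lower. The most changed were Fat4, an atypical cadherin (-3.12 ± 0.11 SE), Vgll3, a TEAD cofactor (-2.87 ± 0.07), and Amot, an angiomotin like Amotl2 (-1.61 ± 0.06). With H2O2 in TβRII flox/flox cells 5 of the 28 were higher and 11 lower, with a median of -0.10, led by Vgll3 (-0.70 ± 0.06) and Tead4, against 21.0% of all genes higher and 20.5% lower. H2O2 raised 3 and lowered 9 of them in TβRII-/- cells, where 39.6% of all genes were called.

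Of 18 other YAP/TAZ targets from a published pan-cancer set, 17 were tested, and 4 were higher and 8 lower in untreated TβRII-/- cells, with a median of -0.12, which Igfbp3 at its lower bound left in place. These 12 calls are 70.6% of the 17, near the 64.7% of all genes called. Lats2 and Ptpn14 belong to this list and to the list above. Rbms3, an RNA-binding protein (-3.41 ± 0.11 SE), and Ccdc80, a matrix protein (-3.01 ± 0.08), were far lower. Igfbp3, which binds insulin-like growth factors, had 0 counts in every untreated TβRII flox/flox library and 63 to 69 in untreated TβRII-/- libraries, at least 21.4-fold higher against 3 normalized counts. With H2O2 in TβRII flox/flox cells 7 targets rose and 5 fell, against 41.6% of all genes called, 21.0% higher and 20.5% lower. The largest changes among those called were Tgfb2, a TGF-β ligand (-1.29 ± 0.08), and Fjx1 (1.27 ± 0.30). Fjx1 was scarce, at 11 to 20 raw counts untreated and 27 to 43 with H2O2. In TβRII-/- cells H2O2 raised 5 and lowered 3, against 39.6% of all genes called.

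The 5 early TGF-β and Smad targets reported here all passed between untreated genotypes, 4 lower and 1 higher, with a median of -1.66. Of all genes tested, 64.7% passed in that comparison, 33.3% higher and 31.4% lower. Pmepa1, a Smad inhibitor, was lower by a log2 fold change of -3.63 ± 0.09 (SE, adjusted p = 5.32e-26), and Tgfbi, a secreted matrix protein, was higher, at 2 to 7 raw counts in TβRII flox/flox and 36 to 51 in TβRII-/- cells. With H2O2 in TβRII flox/flox cells 1 of the 5 passed, against 41.6% of all genes. It was Smad7, lower by a log2 fold change of -0.33 ± 0.08 (SE, edgeR adjusted p = 0.00175). Between untreated genotypes the 4 lower targets ranged from -3.63 to -1.27 on the log2 scale. Ccn2, Ccn4 and Ccn5 lie inside this range, and Ccn1, Ankrd1, Amotl2, Yap1, Wwtr1 and Tead1 outside it. The range leaves out Tgfbi, at 3.35, and with Tgfbi every member tested lies inside. Its upper edge is 1 gene, Smad7 (-1.27 ± 0.09 SE), near Ccn1 (-1.11 ± 0.08), so this split does not sort the members.

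**Figure D4:**
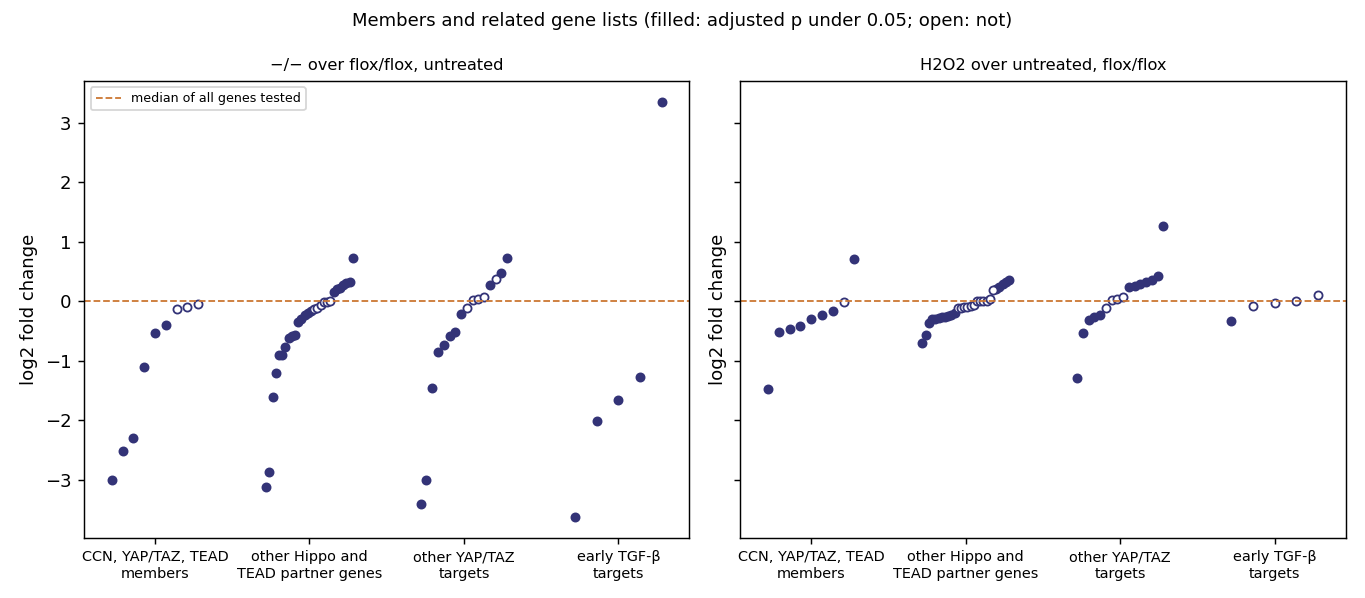
Log2 fold changes (vertical axes, from edgeR) of the members and of the reported genes of 3 related lists, between untreated genotypes on the left and with H2O2 in TβRII flox/flox cells on the right. Each point is a gene, filled where it passed an adjusted p of 0.05, and the dashed line is the median of all genes tested. The targets of TGF-β reach from -3.63 to 3.35 on the left, while on the right all lists lie between -1.47 and 1.27. Igfbp3 is left out because its fitted value against 0 counts is no measure of size.

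Over the 12 libraries, the protein-coding genes whose log2 normalized counts followed those of a member most closely differed by member. Among 12273 genes, Slc7a5, an amino acid transporter (Pearson r = 0.997), Sema3e (0.992) and Gpc6 (0.989) were the most like Ccn1. For Ccn2 they were Fgd3 (0.993), Slc1a4 (0.992) and Ccnd2 (0.992), and for Ankrd1 Gnai3 (0.968), Hnrnpm (0.957) and Psmd11 (0.955). Slc7a5 had means of 8777, 6896, 3518 and 2082 normalized counts in untreated TβRII flox/flox, H2O2-treated TβRII flox/flox, untreated TβRII-/- and H2O2-treated TβRII-/- cells, the same order as Ccn1. These are descriptions, since libraries fall into 4 clusters by group and share their treatment.

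Genes around the CCN genes had median values near or above 0. Among the 24 genes tested nearest to each on its chromosome, the median log2 fold change between untreated genotypes was -0.01 around Ccn1, -0.00 around Ccn2, 0.42 around Ccn4 and 0.36 around Ccn5, where the genes themselves had -1.11, -2.31, -2.52 and -3.01. Around Ankrd1 it was 0.46, above its own -0.12. Single neighbours spread widely, so these medians do not mean level surroundings. They ran from -0.85 to 5.31 around Ccn1 and from -6.04 to 3.92 around Ccn2. Around Ccn4 they ran from -2.06 to 3.99 and around Ccn5 from -0.19 to 10.8. Between untreated genotypes the annotated transcripts of a CCN gene lay close together. Transcripts of a gene share reads in these counts, so this closeness is no separate check. The 6 annotated transcripts of Ccn4 gave values from -2.62 to -2.39, and the 3 of Ccn2 from -2.62 to -2.26. With H2O2 those of Ccn2 spread further, from -3.35 to -2.17 between genotypes and from -2.04 to -1.35 for H2O2 in TβRII-/- cells, with the shortest, of 343 bases and 22 to 720 raw counts, at the lower end of both. The 15 of Tead1 ranged from -0.62 to -0.42, and the 10 of Yap1 from -0.40 to -0.00.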

How the data were processed

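RNA was measured in 12 libraries, 3 per group, grouped by their labels. The authors trimmed reads with fastp, mapped them by STAR on the GRCm38.p6 genome, and used featureCounts on the GENCODE M23 annotation; the libraries were stranded, and the versions of these tools and the strand and shared-read settings of the counting are not given in the sources used here, beyond the R and Bioconductor releases that the methods name. They deposited whole-number counts per transcript without normalization. Gene counts had been assumed in the design. A read is counted on each transcript it overlaps (51387170 to 69231661 counts per library), so the transcript with the highest total stood for its gene. Of 106332 transcripts, 104820 matched GENCODE M39 by identifier, and the other 1512 (1.22 to 1.28% of counts) were left out.

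Counts were normalized by TMM and filtered with filterByExpr with edgeR 4.0.16, on limma 3.58.1 and R 4.3.3. glmQLFit and glmQLFTest were run on 1 model of 12 libraries with a mean per group, with Benjamini-Hochberg adjustment over 12971 genes. Contrasts were the genotypes in each medium, H2O2 in each genotype and their interaction. A second limit (unadjusted p under 0.01 and fold change of 1.5) followed the study. Replicates differed by more than sampling noise, with a chi-square per gene of 3.58 to 12.0. Alternatives were DESeq2 1.42.0, its size factors, other filters, sums over transcripts, fewer groups, the replicate number as a block, and each library left out. The test was tried on simulated data. Intervals are at 95%, and the floor of 3 counts covers counting error only.

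The members, lists and tests were chosen with earlier results of these data known. All 10 members are named. From each related list the 3 genes with the largest absolute log2 fold change in a contrast, among those past an adjusted p of 0.05 with a mean of at least 10 counts, could be named, as could the 3 genes most like Ccn1, Ccn2 and Ankrd1. Tead2, Tead3 and Tead4 were added as paralogs, and Smad7 after its values were seen, to complete a count. Some listed genes are not reported here. Coordinates and promoter sequences are from RefSeq tables of GRCm38.p6, joined with Python 3.11.15. Where no library of a group exceeded 3 counts, the fold change against it is a lower bound set by 3 normalized counts.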

Additional observations from a re-analysis of the deposited data

Results flagged for a closer look

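Ccn1 and Ccn4 were set apart because their H2O2 effects differed between genotypes by a test of that difference. For Ccn1 the effect in TβRII-/- cells minus that in TβRII flox/flox cells was -0.49 on the log2 scale (edgeR adjusted p = 0.00301), with effects of -0.79 and -0.30, and over the alternatives it ran from -0.59 to -0.43 with an adjusted p of at most 0.0194. For Ccn4 the difference was -0.53 (edgeR adjusted p = 0.00116), with effects of 0.17 and 0.70, and over the alternatives it ran from -0.65 to -0.49 with an adjusted p of at most 0.0169.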

How the results depend on the processing

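Of 630 recomputed values of the 45 log2 fold changes of members, 605 kept their direction and side of the threshold, 6 lost their call, 5 gained one and 14 turned direction; none of those that turned had passed the test. The number of members that passed with H2O2 in TβRII-/- cells rose from 4 to 7 when only the groups compared were fitted. The members gained were Ccn4 (edgeR adjusted p = 0.0458), Amotl2 (0.0352) and Yap1 (0.0329). The share of all genes called rose as well, from 39.6% to 45.6%, and the cause was not tested. Without 1 library at a time, the members that passed numbered 6 to 7 between untreated genotypes, 6 with H2O2, 6 to 8 with H2O2 in TβRII flox/flox cells, 3 to 4 in TβRII-/- cells and 2 for the interaction. Ankrd1 between untreated genotypes passed without replicate 2 of untreated TβRII flox/flox (-0.18, adjusted p = 0.0313) or of untreated TβRII-/- cells (-0.18, adjusted p = 0.0376). The values that turned were those of Wwtr1 between H2O2-treated genotypes with at least 10 counts in every library (0.0086), with no filter (0.0034) and without replicate 3 of H2O2-treated TβRII-/- cells (0.029; -0.058 to 0.029 over single libraries left out). Wwtr1 with H2O2 in TβRII flox/flox cells turned with DESeq2 (0.0018), its size factors (0.0054), at least 10 counts (0.0044), sums over transcripts (0.0057), and without replicate 3 of H2O2-treated (0.024) or untreated TβRII flox/flox cells (0.045; -0.033 to 0.045 over single libraries left out). The interaction turned without those replicates for Wwtr1 (-0.0061 and -0.027, with a highest value of 0.074 over single libraries left out) and without the latter for Yap1 (-0.0025, highest 0.065). Ankrd1 between H2O2-treated genotypes turned without replicate 2 of H2O2-treated TβRII flox/flox cells (-0.0019, highest 0.084), and Ccn5 with H2O2 in TβRII-/- cells without replicate 3 of untreated TβRII-/- cells (-0.072, highest 0.27). Replicate numbers did not pair the libraries: 0 of 18 correlations of deviations passed 0.1 (range -0.10 to 0.058), and 2 of 12 libraries were closest to one of their own number. With the number as a replicate block, 6, 6, 8, 4 and 2 members passed in the 5 comparisons, as without it. Among all genes tested, the count called for the interaction fell from 1321 to 833 and 878 without replicates 1 and 2 of H2O2-treated TβRII-/- cells, and all other counts stayed within 1.5 times. At 17 to 29 raw counts per library, depth limits Ccn5 in TβRII-/- cells.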

Other observations

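The shortest annotated Ccn2 transcript, of 343 bases, has a deposited count of its own. A read is counted on each transcript it overlaps, so this count can share reads with the transcript that stood for the gene. The percentages below are therefore not proportions of isoforms. In replicates 1, 2 and 3 it had 588, 575 and 720 raw counts in untreated TβRII flox/flox cells, 205, 62 and 59 in untreated TβRII-/- cells, 237, 290 and 242 in H2O2-treated TβRII flox/flox cells and 31, 38 and 22 in H2O2-treated TβRII-/- cells. As a percentage of the counts of the main transcript, these were 1.88 to 2.80 in untreated TβRII flox/flox, 2.24 to 2.60 in H2O2-treated TβRII flox/flox and 0.843 to 1.25 in H2O2-treated TβRII-/- cells. In untreated TβRII-/- cells they were 3.29, 0.945 and 0.962, so replicate 1 stood apart there, while its main Ccn2 transcript, at 6230 raw counts, lay between those of the other two, at 6563 and 6135. No explanation was tested.

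Per length, the TEAD genes made a different picture from the CCN genes. Tead2 held the largest share of the 4 TEAD genes, at 56.0% ± 3.9 (SD, n = 3) of the normalized counts per kb in untreated TβRII flox/flox and 43.5% ± 0.89 in untreated TβRII-/- cells. Tead4 held 5.16% ± 0.34 and 10.6% ± 0.18 in these groups. Lengths are of GENCODE M39, and a longer or shorter model in the counted annotation would move these shares. The transcript that stood for Tead3, which enters the sum, is annotated as one with a retained intron.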
